A study of Arabidopsis thaliana with 6 samples.

Results

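The lipid-transfer protein superfamily was followed in whole Arabidopsis thaliana seedlings carrying an RNA interference construct (sqtl1 RNAi) and in wild-type Col-0 seedlings. Its members were the table rows of protein-coding genes whose annotation names a lipid-transfer protein, leaving out 5 seed storage albumin genes, which gave 133 genes of 38194. By annotation, 12 of the 133 were DUF784 genes (a domain of unknown function) and 5 were glycolipid transfer genes. The remaining 116 carry other lipid-transfer annotations and were not sorted further by annotation. The name therefore covers several protein types. A run of 8 members lies close together on chromosome 4, and the other 125 members lie elsewhere.

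Plant lipid-transfer proteins are small secreted proteins held together by disulfide bonds between conserved cysteines, with a hydrophobic cavity that binds fatty acids and other lipids. They are known for carrying wax components and monomers of the polymers cutin and suberin, which together seal plant surfaces, and for roles in defence. Some are anchored to the outer face of the plasma membrane, some have a proline-rich stretch between the secretion signal and the cysteine motif, and a few act in long-distance immune signalling.

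Each genotype had 3 biological replicates, and both have the Col-0 background. Seedlings grew on MS medium with sucrose under 16 h of light and 8 h of dark at 22 °C and were collected on day 7 after stratification, the cold treatment that synchronises germination. The RNAi samples are named with sh1, which the labels do not explain. The promoter of the construct, its target gene and the number of independent lines behind the replicates are not stated in the labels, and the knockdown itself was not analysed here. Values are RPKM, reads per kilobase of gene length and per M (mega) reads, so levels of different genes are compared per length. Per-library values are listed for replicates 1, 2 and 3, with the RNAi line before Col-0, and errors are SDs over n = 3 libraries.

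Estimated depth was 43.7 to 47.0 M reads in the RNAi libraries and 38.0 to 49.9 M in the Col-0 libraries. Markers of leaf and root were expressed, and the anther markers summed to at most 0.12 RPKM in the RNAi libraries and 0.2 RPKM in the Col-0 libraries. On the first principal component, which took up 82.4% of the variance, RNAi libraries scored 49.8, 42.6 and 21.7 and Col-0 libraries between -38.8 and -36.9, so RNAi replicate 3 lay nearest to Col-0. In whole seedlings, fewer cells of a type and less RNA per cell cannot be told apart.

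The run on chromosome 4 spans positions 11838960 to 11858970 in the TAIR10.1 assembly and holds 8 members, from AT4G22460 to AT4G22520. The 6 other genes there overlap run members on the other strand, and AT4G22530 among them extends past the end of the run. Its members are related but not copies of each other. AT4G22513 and AT4G22517 share 95.7% of 348 aligned coding bases, the closest pair of the 28 that the 8 genes form. Their windows of 250 bases before the annotated start share 81.2% of 229 aligned bases. AT4G22490 and AT4G22520 share 55.8% of 344 aligned coding bases, the lowest value of any pair. The deposited weighted multiple-mapping ratio, taken here to be the fraction of reads placed at more than 1 locus, was at most 0.000478 for the 8 genes.

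The upstream windows of 4 of the genes with lower levels in the RNAi line are printed because the pair AT4G22513 and AT4G22517 is nearly alike, and because AT4G22505 and AT4G22490, which were also lower, have less similar windows. The AT4G22505 window shares 62.9% and 57.4% of aligned bases with those of the pair, and the AT4G22490 window 65.6% and 70.4%. They are taken from TAIR10.1, end at the base before the annotated start and read 5′ to 3′ in the direction of the gene. Capitals mark TATAAATA, a TATA-box-like motif. They lie at chr4:11854559-11854808 on the plus strand, chr4:11856493-11856742 on the plus strand, chr4:11853019-11853268 on the minus strand and chr4:11850437-11850686 on the minus strand.
AT4G22513: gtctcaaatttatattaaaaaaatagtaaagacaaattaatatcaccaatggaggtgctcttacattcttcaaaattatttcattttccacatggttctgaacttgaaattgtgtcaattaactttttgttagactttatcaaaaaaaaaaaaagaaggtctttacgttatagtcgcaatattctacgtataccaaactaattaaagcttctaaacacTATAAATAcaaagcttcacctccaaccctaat
AT4G22517: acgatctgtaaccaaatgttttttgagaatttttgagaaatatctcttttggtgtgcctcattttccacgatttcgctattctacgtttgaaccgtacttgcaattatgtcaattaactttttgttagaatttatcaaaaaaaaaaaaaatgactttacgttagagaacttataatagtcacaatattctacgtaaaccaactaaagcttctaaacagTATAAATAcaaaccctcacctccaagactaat
AT4G22505: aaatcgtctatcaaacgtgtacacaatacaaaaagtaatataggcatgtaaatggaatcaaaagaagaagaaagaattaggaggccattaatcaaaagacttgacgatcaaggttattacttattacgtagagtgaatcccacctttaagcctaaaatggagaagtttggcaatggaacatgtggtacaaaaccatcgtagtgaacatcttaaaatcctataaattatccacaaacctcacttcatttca
AT4G22490: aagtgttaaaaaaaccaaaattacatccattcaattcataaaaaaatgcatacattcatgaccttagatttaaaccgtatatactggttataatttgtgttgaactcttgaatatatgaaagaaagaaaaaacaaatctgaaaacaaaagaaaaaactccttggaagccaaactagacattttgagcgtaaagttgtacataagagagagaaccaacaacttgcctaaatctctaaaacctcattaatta

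TATAAATA, whose search on both strands was chosen after the sequences were seen, occurs in 4 of the 8 run windows, in 14.3% of the windows of all members and in 9.81% of 27438 gene windows of the genome. In AT4G22513 and AT4G22517 its first base lies 32 bases before the start. In AT4G22485 and AT4G22520, whose gene models begin at the coding start, it lies 88 and 93 bases before the start. The L1 box of epidermal genes, in the forms TAAATGCA and TAAATGTA, and the G-box CACGTG were searched on both strands and are in 0 of the 8 windows. Across the genome, 1.57%, 3% and 6.49% of windows hold these 3 motifs. No match says only that these letters are not in this window.

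Most of the run was far lower in RNAi seedlings than in Col-0 seedlings, and 1 gene was higher. In limma's moderated test across 19458 genes, 7 of the 8 members were lower and 1 was higher at a Benjamini-Hochberg adjusted p under 0.05. Over all genes tested 27.5% were lower, 25.2% were higher and 52.6% passed in either direction. The median log2 fold change of the run, on the log2(RPKM + 1) scale, was -2.65, against -0.06 for the 57 tested members outside the run and -0.01 for all genes tested. With 1 RPKM added, the fold changes of low genes are understated, so ratios of group means are given as well. AT4G22485, AT4G22505 and AT4G22520, 3 of the 7 lower genes, averaged under 1 RPKM in the RNAi line. They passed the filter of a mean of 1 RPKM through their Col-0 levels, so their tests add nothing to their values.

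**Figure D1:**
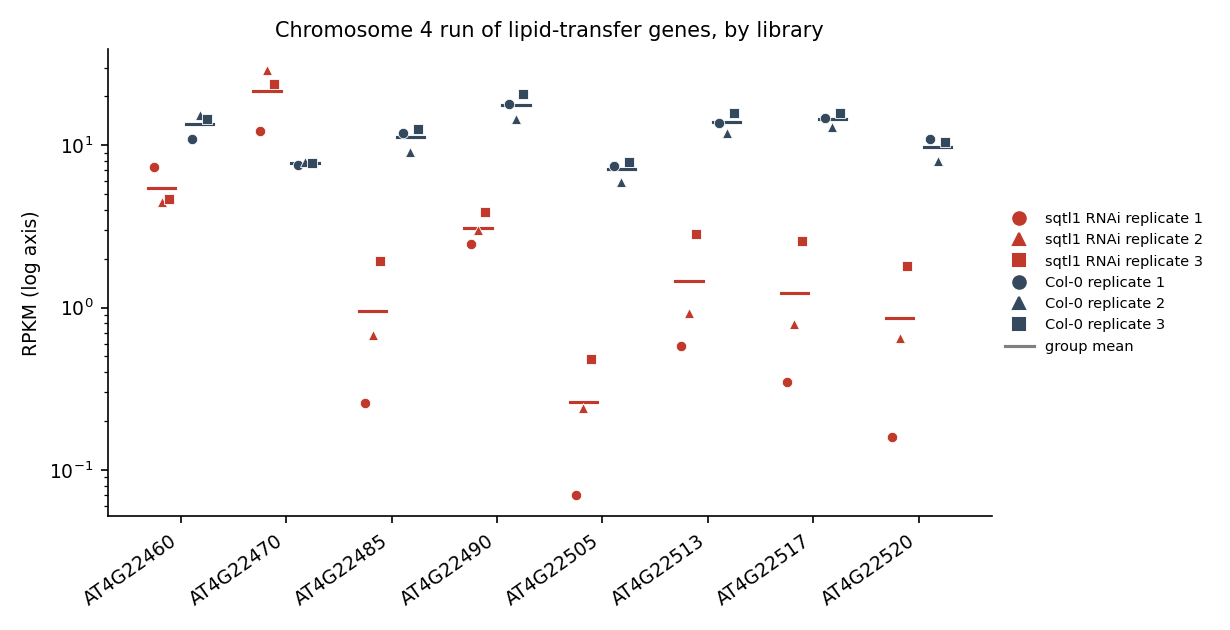
RPKM (log axis) of the 8 genes of the chromosome 4 run in each library, with sqtl1 RNAi left of Col-0 for each gene, a marker shape for each replicate and a line at the group mean. In 7 genes every RNAi point lies below every Col-0 point, while in AT4G22470 the RNAi points, at 12.3 to 28.8 RPKM, lie above the Col-0 points.

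AT4G22505 stood lowest in the RNAi line. It had 0.07, 0.24 and 0.48 RPKM in RNAi seedlings, against 7.41, 5.93 and 7.91 RPKM in Col-0 seedlings. The groups were far apart and did not overlap, with RNAi replicate 1 lowest of all. Its RNAi mean was 26.9-fold lower (log2 fold change -2.68), and 45.7-fold lower without RNAi replicate 3. The RNAi values correspond to an estimated 6, 22 and 40 reads, so counting error is larger there than in Col-0, with an estimated 619, 399 and 699 reads.

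The near-identical neighbours AT4G22513 and AT4G22517 moved alike. AT4G22513 had 0.58, 0.93 and 2.85 RPKM in RNAi seedlings, against 13.6, 11.9 and 15.9 RPKM in Col-0 seedlings. AT4G22517 had 0.35, 0.79 and 2.56 RPKM in RNAi seedlings, against 14.7, 12.8 and 15.8 RPKM in Col-0 seedlings. In both genes RNAi replicate 3 was the highest RNAi library and still lay well under the lowest Col-0 library. The RNAi mean was 9.48-fold lower for AT4G22513 (log2 fold change -2.69, SE 0.32, limma adjusted p = 0.00104) and 11.7-fold lower for AT4G22517 (log2 fold change -2.91, SE 0.33, limma adjusted p = 0.000946). Without RNAi replicate 3, the highest, AT4G22513 was 18.3-fold lower and AT4G22517 25.4-fold lower.

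AT4G22485 and AT4G22520 had the same pattern. AT4G22485 had 0.26, 0.68 and 1.93 RPKM in RNAi seedlings, against 11.9, 9.06 and 12.6 RPKM in Col-0 seedlings. AT4G22520 had 0.16, 0.65 and 1.79 RPKM in RNAi seedlings, against 10.9, 7.94 and 10.4 RPKM in Col-0 seedlings. Neither gene's groups overlapped. AT4G22485 was 11.7-fold lower (log2 fold change -2.72) and AT4G22520 11.3-fold lower (log2 fold change -2.61). Without RNAi replicate 3 they were 23.8-fold and 24.1-fold lower. AT4G22520 rested on an estimated 2, 12 and 28 reads in the RNAi libraries. AT4G22530 overlaps the whole of AT4G22520 on the other strand. It had 7.13, 6.16 and 4.89 RPKM in RNAi seedlings and 6.87, 8.14 and 7.82 RPKM in Col-0 seedlings, and it did not pass the test (limma adjusted p = 0.0877). The libraries mark strand, but the labels do not say whether the counting used it.

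AT4G22490 and AT4G22460 kept more of their Col-0 level. AT4G22490 had 2.45, 2.98 and 3.89 RPKM in RNAi seedlings, against 17.8, 14.6 and 20.7 RPKM in Col-0 seedlings. Its groups did not overlap, and the RNAi mean was 5.69-fold lower (log2 fold change -2.19, SE 0.16, limma adjusted p = 0.000282). AT4G22460, at the end of the run next to AT4G22470, had 7.32, 4.46 and 4.64 RPKM in RNAi seedlings, against 10.8, 15.2 and 14.5 RPKM in Col-0 seedlings. Here RNAi replicate 1 was the highest RNAi library, yet below every Col-0 library (log2 fold change -1.18, SE 0.19, limma adjusted p = 0.00312).

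AT4G22470 went the other way. It had 12.3, 28.8 and 23.7 RPKM in RNAi seedlings, against 7.54, 7.92 and 7.74 RPKM in Col-0 seedlings. All RNAi libraries were above all Col-0 libraries, with RNAi replicate 1 nearest to them (log2 fold change 1.29, SE 0.28, limma adjusted p = 0.00878). AT4G22470 lies between AT4G22460 and AT4G22485, both lower, on the same strand. Its coding sequence shares 75.9% of 395 aligned bases with AT4G22460 and 72.4% of 1128 with AT4G22485.

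Within the RNAi line, the 6 genes from AT4G22485 to AT4G22520 kept 1 order, with replicate 1 lowest and replicate 3 highest in each. The ratio of highest to lowest RNAi library was 11.2 in AT4G22520, 7.42 in AT4G22485, 7.31 in AT4G22517, 6.86 in AT4G22505, 4.91 in AT4G22513 and 1.59 in AT4G22490. In Col-0 the same ratio was between 1.23 and 1.42 in these genes, and replicate 2 was lowest in all 6. The RNAi libraries also differed from each other in tissue markers. The leaf markers (a light-harvesting protein, the small subunit of Rubisco and Rubisco activase) were lower (3 of 3), beside 27.5% of all genes tested. They summed to 10287, 11191 and 15693 RPKM in the RNAi libraries against 22053 to 23135 RPKM in Col-0 libraries. The 4 seed markers are given by level only, since the 3 that were tested averaged under 1 RPKM in Col-0 and reached the filter through the RNAi libraries. They had sums of 7.9 to 44.3 RPKM in the RNAi libraries against 0.38 to 2.77 RPKM in Col-0 libraries, and the storage protein gene CRA1 had 28.0, 7.62 and 5.18 RPKM in RNAi seedlings against 0.04, 0.65 and 0.00 RPKM in Col-0 seedlings. The part of either in the run's result was not tested.

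No tested neighbour of the run changed by as much as 1 log2 unit. Of the 10 genes before the run 1 was tested, AT4G22380, and of the 10 after it 7 were, so the side before the run rests on 1 gene. Of these 8, 2 were higher and 2 lower, or 50% called beside 52.6% of all genes tested. Their median log2 fold change was -0.09. The largest changes among them were 0.80 for TPPG, a trehalose phosphatase gene, 0.76 for AT4G22380 and -0.57 for AT4G22610, itself a member. The 5 genes that overlap run members on the other strand, apart from AT4G22530, were at most 0.41 RPKM in any library.

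**Figure D2:**
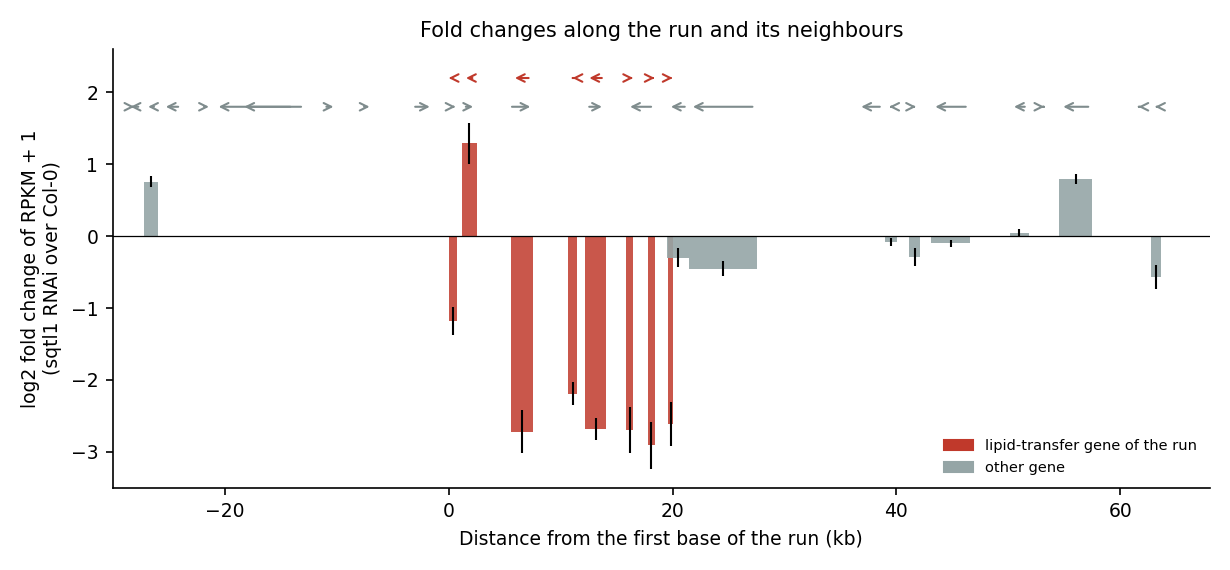
Log2 fold change of RPKM + 1 (sqtl1 RNAi over Col-0) against distance in kb from the first base of the chromosome 4 run, for tested genes of the run (red) and other genes (grey), with bars at each gene's extent, lines of 1 SE and arrows for the strand of every gene. The 7 lower run genes lie between -2.91 and -1.18, AT4G22470 lies at 1.29 and the tested neighbours lie between -0.57 and 0.80.

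Across the whole family, more tested members were lower than higher in the RNAi line. A mean of at least 1 RPKM was reached by 65 of the 133 members, of which 12 were higher and 31 lower. That is 18.5% higher and 47.7% lower (5 of the lower genes, 3 of them in the run, averaged under 1 RPKM in the RNAi line and were tested through their Col-0 level), beside 25.2% and 27.5% of all genes tested. The groups did not overlap for 44 of the 65, where 64.1% of all genes tested did not overlap. Called decreases of 1 log2 unit or more numbered 16, or 24.6% of those tested, beside 3.26% of all genes, and 7 of the 16 were in the run. Called increases of that size numbered 2, LTP2 and AT4G22470, or 3.08% of those tested beside 3.36% of all genes. Outside the run, 11 of 57 tested members were higher and 24 were lower.

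Of the 68 members that were not tested, 54 had at most 0.1 RPKM in every library, among them all 12 DUF784 genes. The 5 anther and tapetum genes, which are known from pollen formation, were also not tested. These low members are accounted for here by their levels only. 4 of the remaining 14 had groups that did not overlap, where 64.1% of all genes tested, which have higher levels, did not overlap. AT1G18280 and AT5G55410 were higher in the RNAi line, and AT1G73550 and AT5G59330 were lower. AT5G55410 reached the highest level of these, with 2.27, 1.05 and 0.51 RPKM in RNAi seedlings and 0.10, 0.16 and 0.24 RPKM in Col-0 seedlings.

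**Figure D3:**
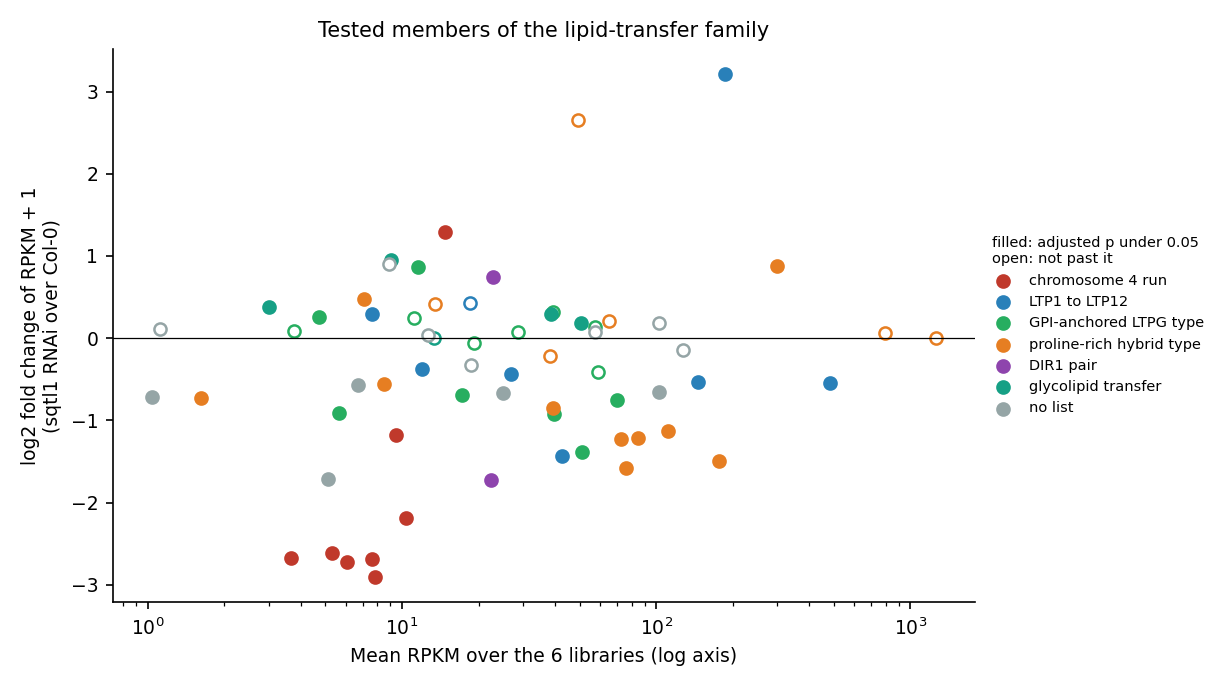
Log2 fold change of RPKM + 1 (sqtl1 RNAi over Col-0) against mean RPKM over the 6 libraries (log axis) for the 65 tested members, coloured by type, with filled points past an adjusted p of 0.05 and open points not past it. The run genes sit at low mean levels with fold changes down to -2.91, LTP2 stands apart at 3.21, and the members with the highest means, AT2G45180 and AT2G10940, lie near 0.

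The summed level of the family overlapped between genotypes. The 133 members summed to 4672, 4850 and 5365 RPKM in RNAi seedlings and 5426, 5263 and 5232 RPKM in Col-0 seedlings. The run contributed 23.5, 39.5 and 41.8 RPKM in RNAi seedlings and 94.8, 85.4 and 106 RPKM in Col-0 seedlings. AT2G45180 had the highest mean, with 1142, 1215 and 1418 RPKM in RNAi seedlings and 1352, 1214 and 1200 RPKM in Col-0 seedlings (log2 fold change -0.00, SE 0.12, limma adjusted p = 0.998). AT2G10940 followed, with 703, 753 and 988 RPKM in RNAi seedlings and 840.4, 741 and 735 RPKM in Col-0 seedlings (log2 fold change 0.06, SE 0.15, limma adjusted p = 0.734). The groups of both genes overlapped. For AT2G45180 the sign depended on the scaling, with 0.36 under quantile normalization (limma adjusted p = 0.0309).

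The classical secreted lipid-transfer genes moved in both directions. Of 12 such members, 8 were tested, of which 2 were higher and 5 were lower, or 25% and 62.5% beside 25.2% and 27.5% of all genes tested. LTP2, which is known from the cuticle of dark-grown hypocotyls, had 391, 370 and 256 RPKM in RNAi seedlings, against 44.7, 33.7 and 28.8 RPKM in Col-0 seedlings. Every RNAi library lay far above every Col-0 library, and the RNAi mean was 9.49 times the Col-0 mean (log2 fold change 3.21, SE 0.21, limma adjusted p = 0.000217). Its neighbour LP1, also called LTP1, a highly expressed epidermal gene, had 402, 322 and 460.1 RPKM in RNAi seedlings, against 588, 569 and 548 RPKM in Col-0 seedlings. The groups did not overlap and LP1 was lower (log2 fold change -0.54, SE 0.14, limma adjusted p = 0.0155), but the call was lost without Col-0 replicate 1 (limma adjusted p = 0.0595), without Col-0 replicate 2 (limma adjusted p = 0.0538) and with no filter on low genes (limma adjusted p = 0.0584). LTP2, far below LP1 in every Col-0 library, came close to LP1 in RNAi replicate 1 and passed it in RNAi replicate 2.

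Other classical members changed less. AT2G18370 had 23.6, 18.4 and 25.9 RPKM in RNAi seedlings, against 55.2, 61.6 and 71.3 RPKM in Col-0 seedlings. It had no overlap between groups and the largest decrease of the 12 (log2 fold change -1.44, SE 0.14, limma adjusted p = 0.000619). LTP5, known from pollen tube growth, fell by 0.53 on the log2 scale (limma adjusted p = 0.00842), LTP6 by 0.44 (limma adjusted p = 0.00644) and LTP7 by 0.38 (limma adjusted p = 0.00547). LTP3, known from drought and abscisic acid responses, was higher, with 8.17, 9.46 and 7.97 RPKM in RNAi seedlings against 6.71, 6.42 and 7.18 RPKM in Col-0 seedlings (log2 fold change 0.29, limma adjusted p = 0.0177). That call was lost without Col-0 replicate 1 (limma adjusted p = 0.0597), without Col-0 replicate 2 (limma adjusted p = 0.0673) and with no filter on low genes (limma adjusted p = 0.0507). AT5G01870 had 18.5, 29.9 and 17.0 RPKM in RNAi seedlings and 15.7, 15.2 and 15.5 RPKM in Col-0 seedlings, and did not overlap. It did not pass the test (log2 fold change 0.43, limma adjusted p = 0.107) except without RNAi replicate 3 (limma adjusted p = 0.0324).

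LTP3 lies between 2 related members, LTP4 and AT5G59330, in a small run on chromosome 5, and both were too low to be tested. LTP4 had 0.81, 0.15 and 0.03 RPKM in RNAi seedlings and 0.10, 0.01 and 0.08 RPKM in Col-0 seedlings. AT5G59330 had 0.01, 0.01 and 0.05 RPKM in RNAi seedlings, an estimated 0, 0 and 1 reads, against 0.54, 0.83 and 0.87 RPKM in Col-0 seedlings, an estimated 15, 18 and 25 reads. The groups of AT5G59330 did not overlap, and those of LTP4 did.

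**Figure D4:**
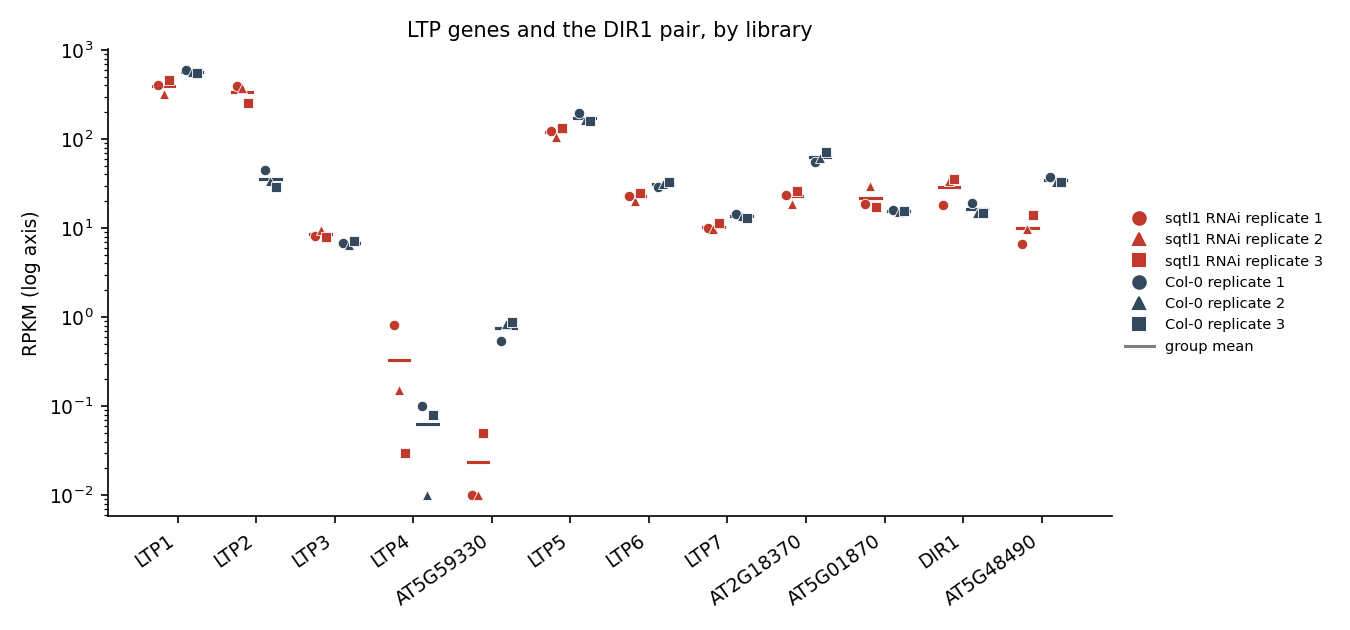
RPKM (log axis) of classical lipid-transfer genes, DIR1 and AT5G48490 in each library, with sqtl1 RNAi left of Col-0 for each gene, a marker shape for each replicate and a line at the group mean. LTP2 lies at 256 to 391 RPKM in RNAi libraries and at 28.8 to 44.7 RPKM in Col-0 libraries, whereas AT2G18370 and AT5G48490 are lower in every RNAi library.

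DIR1, which is required for long-distance signalling in systemic acquired resistance, and its neighbour AT5G48490 moved in opposite directions. DIR1 had 18.3, 33.8 and 35.4 RPKM in RNAi seedlings, against 19.3, 14.9 and 14.8 RPKM in Col-0 seedlings. RNAi replicate 1 lay within the Col-0 values, so the groups overlapped. DIR1 was called higher (log2 fold change 0.75, SE 0.25, limma adjusted p = 0.0426), but the call was lost in 7 other settings, with limma adjusted p between 0.062 and 0.142, among them leaving out RNAi replicate 2 or 3 or any of the 3 Col-0 libraries. Reads of AT5G48480, which overlaps DIR1 on the other strand and reached 16.7 RPKM, could be split from those of DIR1 only if strand was used. AT5G48490 had 6.62, 9.65 and 14.0 RPKM in RNAi seedlings, against 37.8, 32.8 and 33.0 RPKM in Col-0 seedlings. Its groups did not overlap, and it was lower (log2 fold change -1.73, SE 0.23, limma adjusted p = 0.00149).

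The proline-rich members gave 2 higher and 8 lower genes among 16 tested of 17, or 12.5% and 50% beside 25.2% and 27.5% of all genes tested. AT1G12100, 1 of the 8, averaged under 1 RPKM in the RNAi line and reached the filter through Col-0. Many sit in a second run of 7 members on chromosome 4, positions 7406065 to 7434858, which begins with EARLI1, a gene known from cold and aluminium responses. The genes of this run other than EARLI1 and AT4G12545 were named after their values were seen. EARLI1 had 302, 469 and 396 RPKM in RNAi seedlings, against 205, 203 and 213 RPKM in Col-0 seedlings, with no overlap (log2 fold change 0.88, SE 0.15, limma adjusted p = 0.00401). At the other end, AT4G12545 had 86.0, 90.2 and 100.2 RPKM in RNAi seedlings, against 242, 263 and 283 RPKM in Col-0 seedlings. Every RNAi library was far below every Col-0 library (log2 fold change -1.50, SE 0.09, limma adjusted p = 0.000149).

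Between these ends the direction turned. AT4G12490 had 9.32, 128 and 135 RPKM in RNAi seedlings and 7.75, 7.13 and 9.32 RPKM in Col-0 seedlings. RNAi replicate 1 sat at the top of the Col-0 range while the other RNAi libraries were far above it, and the gene did not pass the test (log2 fold change 2.65, SE 0.96, limma adjusted p = 0.056). Without RNAi replicate 1 its log2 fold change was 3.88 (limma adjusted p = 3.21e-05). AT4G12500 had 3.32, 26.3 and 22.6 RPKM in RNAi seedlings and 9.19, 9.73 and 9.67 RPKM in Col-0 seedlings, so RNAi replicate 1 was below Col-0 and the others above it (limma adjusted p = 0.624). Without RNAi replicate 1 its log2 fold change was 1.27 (limma adjusted p = 0.000125), and without RNAi replicate 2 it was -0.06.

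Further along, AT4G12510 had 56.4, 40.6 and 55.9 RPKM in RNAi seedlings, against 109, 126 and 122 RPKM in Col-0 seedlings (log2 fold change -1.22, limma adjusted p = 0.000875). AT4G12520 had 72.0, 62.5 and 73.5 RPKM in RNAi seedlings, against 140.1, 165 and 155 RPKM in Col-0 seedlings (log2 fold change -1.13, limma adjusted p = 0.000325). Both were lower in every RNAi library, but their multiple-mapping ratios were 0.585 and 0.563, so their reads could be shared between near-identical copies and the level of each is uncertain. AT4G12530, the remaining gene of the run, had at most 0.31 RPKM in any library. A pair of proline-rich genes outside the family rule flank this run, and both were chosen after their values were seen. AZI1, which primes defence, was higher next to EARLI1, with 371, 462 and 364 RPKM in RNAi seedlings against 204, 193 and 176 RPKM in Col-0 seedlings (log2 fold change 1.05, limma adjusted p = 0.000783). AIR1, known as an auxin-induced root gene, was lower next to AT4G12545, with 62.7, 103 and 172 RPKM in RNAi seedlings against 283, 265 and 300.1 RPKM in Col-0 seedlings (log2 fold change -1.44, limma adjusted p = 0.0113).

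**Figure D5:**
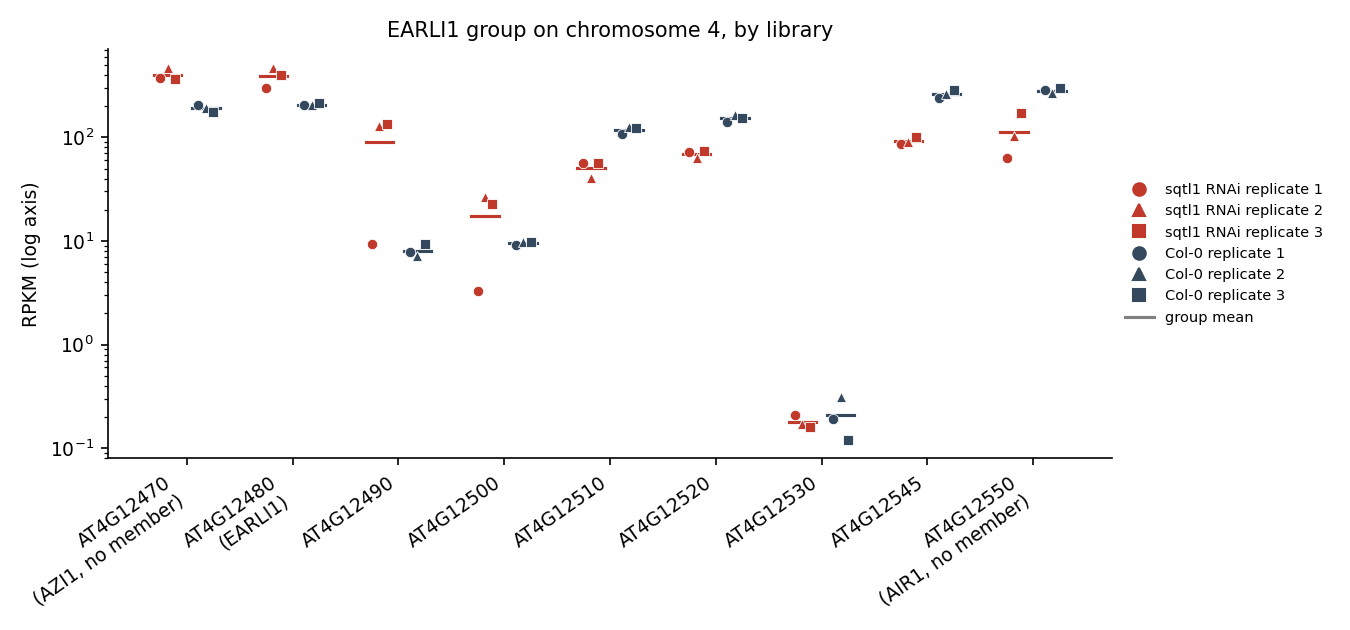
RPKM (log axis) in each library of the EARLI1 run genes and of AZI1 and AIR1, which flank the run and are not members. For each gene sqtl1 RNAi lies left of Col-0, with a marker shape for each replicate and a line at the group mean. EARLI1 is higher in every RNAi library, AT4G12510, AT4G12520 and AT4G12545 are lower in every RNAi library, and in AT4G12490 RNAi replicate 1 stands at 9.32 RPKM beside 128 and 135 RPKM in the other RNAi libraries.

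Among proline-rich genes elsewhere, the adjacent AT5G46890 and AT5G46900 were lower. AT5G46890 had 44.6, 29.1 and 39.9 RPKM in RNAi seedlings, against 106, 117 and 118 RPKM in Col-0 seedlings (log2 fold change -1.58, SE 0.15, limma adjusted p = 0.000558). AT5G46900 had 47.3, 34.8 and 47.0 RPKM in RNAi seedlings, against 89.0, 110.2 and 106 RPKM in Col-0 seedlings (log2 fold change -1.23, SE 0.14, limma adjusted p = 0.000925). In both, replicate 2 was the lowest RNAi library and the groups did not overlap. AT4G00165 fell by 0.85 on the log2 scale (limma adjusted p = 0.00119), and AT3G22142 was higher by 0.48 (limma adjusted p = 0.00122). AT1G62500 was lower by a log2 fold change of -0.56 (limma adjusted p = 0.0166), a call lost in 5 other settings, among them leaving out RNAi replicate 2 or any 1 Col-0 library (limma adjusted p between 0.051 and 0.0669).

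Members anchored to the membrane by a glycolipid tail (GPI), the type known for wax export and suberin deposition, gave 2 higher and 5 lower genes among 14 tested of 22. In all 50% were called, near the 52.6% of all genes tested, with 14.3% higher and 35.7% lower. AT3G58550 had 28.9, 24.6 and 30.4 RPKM in RNAi seedlings, against 69.9, 72.0 and 81.1 RPKM in Col-0 seedlings, with no overlap (log2 fold change -1.38, SE 0.10, limma adjusted p = 0.000236). EDA4, named from an embryo sac defect, had 28.1, 23.3 and 30.6 RPKM in RNAi seedlings, against 52.8, 50.1 and 53.8 RPKM in Col-0 seedlings (log2 fold change -0.92, limma adjusted p = 0.000784). Its neighbour AT2G48130 fell by 0.69 on the log2 scale (limma adjusted p = 0.00443), AT3G22620 by 0.75 (limma adjusted p = 0.00455) and AT5G13900 by 0.91 (limma adjusted p = 0.000704).

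XYP1, an arabinogalactan-bearing member known for promoting xylem differentiation, was higher. It had 17.8, 14.0 and 14.0 RPKM in RNAi seedlings, against 8.2, 7.46 and 8.00 RPKM in Col-0 seedlings, with no overlap (log2 fold change 0.86, SE 0.10, limma adjusted p = 0.000914). Its relative XYP2 had 19.1, 17.9 and 19.6 RPKM in RNAi seedlings and 19.2, 20.5 and 19.1 RPKM in Col-0 seedlings (log2 fold change -0.06, limma adjusted p = 0.418). LTPG2, which acts in wax export, had 45.4, 46.5 and 39.3 RPKM in RNAi seedlings and 41.2, 32.5 and 31.2 RPKM in Col-0 seedlings. The groups overlapped and LTPG2 did not pass the test (log2 fold change 0.32, SE 0.12, limma adjusted p = 0.0579). It passed in 4 other settings, among them without RNAi replicate 3 or Col-0 replicate 1 (limma adjusted p between 0.0163 and 0.0373). LTPG5 (AT3G22600) had 63.6, 43.8 and 45.2 RPKM in RNAi seedlings and 61.5, 70.5 and 69.7 RPKM in Col-0 seedlings, and its groups overlapped (log2 fold change -0.41, limma adjusted p = 0.0523). Without RNAi replicate 1 it was lower, with a log2 fold change of -0.58 (limma adjusted p = 0.00102). AT2G27130 was called higher by a log2 fold change of 0.26 (limma adjusted p = 0.0421), a call lost in 6 other settings, among them leaving out RNAi replicate 1 or 3 or any 1 Col-0 library (limma adjusted p between 0.058 and 0.132).

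The glycolipid transfer genes, whose proteins move glycolipids or ceramide phosphates between membranes inside the cell, gave 4 higher genes of 5. That is 80% higher beside 25.2% of all genes tested, on few genes. GLTP2 had 10.5, 14.2 and 12.1 RPKM in RNAi seedlings, against 5.55, 5.68 and 6.29 RPKM in Col-0 seedlings, with no overlap (log2 fold change 0.95, SE 0.11, limma adjusted p = 0.000897). ACD11, whose loss is known to cause accelerated cell death, had 41.9, 43.8 and 42.7 RPKM in RNAi seedlings, against 34.4, 33.6 and 35.4 RPKM in Col-0 seedlings (log2 fold change 0.30, limma adjusted p = 0.00231). AT4G39670 was higher by 0.38 (limma adjusted p = 0.0134) and GLTP1 by 0.18 (limma adjusted p = 0.0273), the second of which was lost in 5 other settings, among them leaving out RNAi replicate 2 or any 1 Col-0 library (limma adjusted p between 0.0605 and 0.104). GLTP3 had 11.3, 14.3 and 14.7 RPKM in RNAi seedlings and 12.96, 13.6 and 13.7 RPKM in Col-0 seedlings, which overlapped.

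Among 50 members that belong to no list, 12 were tested, and 0 were higher and 5 lower. That is 41.7% called, all lower, beside 52.6% called and 27.5% lower of all genes tested. AT1G73780, 1 of the 5, averaged under 1 RPKM in the RNAi line and reached the filter through Col-0. AT5G55450 had 0.77, 2.52 and 2.57 RPKM in RNAi seedlings, against 9.08, 7.58 and 8.07 RPKM in Col-0 seedlings, with no overlap (log2 fold change -1.71, SE 0.27, limma adjusted p = 0.00273). AT3G53980 had 98.0, 67.2 and 75.2 RPKM in RNAi seedlings, against 125, 132 and 121 RPKM in Col-0 seedlings (log2 fold change -0.66, limma adjusted p = 0.00706). AT2G37870 had 20.2, 6.67 and 9.59 RPKM in RNAi seedlings and 7.60, 4.86 and 4.25 RPKM in Col-0 seedlings, did not pass the test (log2 fold change 0.90, limma adjusted p = 0.0872) and overlapped. Without RNAi replicate 2 it passed (log2 fold change 1.22, limma adjusted p = 0.0398). Another group of 5 members on chromosome 4, positions 11901703 to 11917959, begins with AT4G22610, the last of the 10 genes counted after the main run. The group had 2 lower genes among 3 tested, or 66.7% lower beside 27.5% of all genes tested, on few genes. AT4G22666 fell by 0.67 on the log2 scale (limma adjusted p = 0.00115). AT4G22610 fell by 0.57 (limma adjusted p = 0.0281), a call lost in 6 other settings, among them leaving out RNAi replicate 2 or 3 or any 1 Col-0 library (limma adjusted p between 0.0542 and 0.101).

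Genes for making and exporting the lipids these proteins are known to carry were counted in the same fit. Of 12 tested suberin genes, 1 was higher and 10 were lower, or 83.3% lower beside 27.5% of all genes tested. The median log2 fold change was -1.06 for suberin genes, against -0.01 for all genes. The suberin transporter genes ABCG2 and ABCG20 and the fatty acyl reductase gene FAR5 fell by 1.33, 1.32 and 1.16 on the log2 scale (limma adjusted p = 0.000705, 0.00072 and 0.00186). Of 10 tested cutin genes, 1 was higher and 7 were lower, or 70% lower, with a median of -0.67. PEL3, an acyltransferase of cutin formation, fell by 1.30 (limma adjusted p = 0.000228) and GPAT6 by 1.22 (limma adjusted p = 0.00275), while the lipase-type gene AT5G33370 had 0.02, 0.00 and 0.01 RPKM in RNAi seedlings, against 5.11, 4.99 and 4.71 RPKM in Col-0 seedlings. AT5G33370 is 1 of the 7 lower cutin genes and reached the filter through its Col-0 level alone, so its test adds nothing to these values. Of 11 tested wax genes, 1 was higher and 5 were lower, with a median of -0.20. The share of wax genes called, 54.5%, was near the 52.6% of all genes tested. By direction, 9.09% were higher and 45.5% lower, beside 25.2% and 27.5% of all genes tested. The alkane-forming gene CER1 and LACS1 fell by 1.21 and 1.18 (limma adjusted p = 0.0228 and 0.000567).

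Of the 5 tested regulators of cuticle formation, 1 was higher and 2 were lower, or 60% called beside 52.6% of all genes tested, on few genes. MYB106 had 0.05, 0.06 and 0.06 RPKM in RNAi seedlings, against 2.43, 2.64 and 2.35 RPKM in Col-0 seedlings. It is 1 of the 2 lower regulators and reached the filter through its Col-0 level alone. Its close relative MYB16 fell by 0.71 (limma adjusted p = 0.000351), and MYB30, a regulator of long-chain lipid synthesis, was higher by 0.24 (limma adjusted p = 0.0183). Of the 10 tested genes for lipid-derived signals and other partners of DIR1 in systemic resistance, 0 were higher and 6 were lower. That is 60% called, all lower, beside 52.6% called and 27.5% lower of all genes tested. ALD1, 1 of the 6, averaged under 1 RPKM in the RNAi line and reached the filter through Col-0. FAD7, a plastid fatty acid desaturase, fell by 0.77 (limma adjusted p = 0.000925) and GLY1, which makes glycerol-3-phosphate, by 0.59 (limma adjusted p = 0.000742). Of 6 epidermal markers, 0 were higher and 2 were lower, or 33.3% lower beside 27.5% of all genes tested. ATML1 had a log2 fold change of -0.17 and PDF1 of -0.65, while 4 were not called and the median of the 6 was 0.04. The 6 summed to 127 to 140 RPKM in the RNAi libraries against 151 to 157 RPKM in Col-0 libraries. PDF1 alone averaged 38.6 RPKM in the RNAi line and 60.9 RPKM in Col-0. Of 4 root markers, 0 were higher and 2 were lower, or 50% lower beside 27.5% of all genes tested, on few genes. The 2 lower were CASP1, at 57.9 RPKM in the RNAi line against 89.9 RPKM in Col-0, and GL2, at 1.19 against 3.45 RPKM. EXPA7 and EXT10 were not called and had higher means in the RNAi line, 20.2 against 12.6 RPKM and 23.9 against 17.4 RPKM. The root sums overlapped, with 87.5 to 113 RPKM in the RNAi libraries against 111 to 135 RPKM in Col-0 libraries. The part of these tissues in the family's changes was not tested.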

How the data were processed

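Whole-seedling RNA of 3 sqtl1 RNAi and 3 Col-0 replicates was sequenced from strand-marked poly(A) libraries, per the labels' protocols. Values are RPKM as deposited by the authors, with a gene length and a weighted multiple-mapping ratio per the file headers. The ratio is read here as a fraction from 0 to 1. The submitters' processing notes name Trimmomatic 0.39, Bowtie2 2.2.6 and TAIR10. The counting tool, gene set and strand setting are not stated there. Positions and sequences are from TAIR10.1, where 133 of 133 members matched by identifier.

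The 19458 genes whose mean reached 1 RPKM were tested on log2(RPKM + 1) with limma 3.58.1 (R 4.3.3), two-sided, with a variance prior that follows the mean and Benjamini-Hochberg adjustment over all genes tested. Calls are at an adjusted p under 0.05. The procedure was tested on simulated data. Depth was estimated from the step that 1 read is worth in genes under 0.4 kb. Of low values, 81.1% to 87.1% lay within 0.0055 RPKM of a step, so depths are approximate and no count test was run. Run members are at most 10 kb apart. Of the members, 29 overlap another gene, 27 of them on the other strand, where reads cannot be told apart unless strand was counted. Coding sequences and upstream windows were aligned with Biopython 1.88. Alternatives changed the pseudocount, filter, scaling, variance prior, block, libraries, multiple-mapping limit and run gap.

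Members, lists and motifs were chosen with earlier results of these data known. Named are all run genes, the 12 largest called increases and decreases with at least 5 RPKM and no overlap, the classical and DIR1 genes, the 5 highest means and up to 3 called genes per pathway list. Other members were chosen after their values were seen, as were the ratios of run means with each library left out. The 3 replicates are called biological in the labels. The relation of the RNAi replicates to independent transformants is not given.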

Additional observations from a re-analysis of the deposited data

How the results depend on the processing

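The run kept 7 lower and 1 higher genes in every setting that tested all 8 genes, including leaving out each library. In the main setting, 3 of the 7 lower genes averaged under 1 RPKM in the RNAi line and reached the filter through Col-0. With a filter at 5 RPKM, which removed AT4G22505, it had 6 lower and 1 higher. The median log2 fold change of the run was -3.59 with a pseudocount of 0.1 and -1.39 with a pseudocount of 5, and -2.88 to -2.37 with 1 library left out. That of the members outside the run was -0.15 with a filter at 5 RPKM, which tests fewer genes, and -0.13 to -0.02 with 1 library left out. With 1 library left out, 8 to 14 members were higher and 27 to 33 lower. With no filter, 10 were higher and 29 lower, and with quantile normalization 15 and 31. The replicate numbers did not pair the libraries (same-number correlations -0.0642, 0.0928 and 0.0198). With the replicate block, 13 members were higher and 31 lower, and over all genes 4272 and 4762. Among the named members it gained AT4G12490, LTPG2 and AT2G37870 and lost DIR1 and GLTP1. Of 711 settings of 51 named members, 653 kept direction and call, 35 lost a call, 11 gained one and 12 changed sign. The sign changed for AT2G45180 (0.36 with quantile normalization, 0.01 with median-ratio scaling, -0.09 to 0.07 with a library left out), for AT3G21260 (0.00 with quantile normalization, 0.01 with median-ratio scaling, -0.07 to 0.11 with a library left out), for AT2G10940 (-0.08 to 0.16 with a library left out) and for AT4G12500 (-0.06 to 1.27). The cause was not tested. Without members whose multiple-mapping ratio is over 0.1, 12 were higher and 29 lower. RNAi libraries hold an estimated 2 to 80 reads each of AT4G22505, AT4G22513, AT4G22517 and AT4G22520, which limits the precision of their folds.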
